A study of Mus musculus with 10 samples.

Results

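Nodal is a secreted TGF-β family ligand that, with the co-receptor Tdgf1, acts through activin receptors, Smad2 and Smad3 and the DNA-binding partner Foxh1. The Lefty proteins are targets of the pathway that block it in turn. In the early mouse embryo this signalling patterns the epiblast and drives mesendoderm, the common precursor of mesoderm and endoderm, which is marked by *Gsc*, *Mixl1*, *Mesp1*, *Lhx1* and *Cer1*, and undifferentiated mouse ES cells are known to carry Nodal signalling at a basal level. The 10 genes described here are *Nodal*, *Lefty1*, *Lefty2*, *Tdgf1*, *Foxh1*, *Gsc*, *Mixl1*, *Mesp1*, *Lhx1* and *Cer1*. They were chosen by name, and every array probe whose transcript accession belongs to one of them was taken, which gave 10 of the 20972 genes named on the array and 12 of its 55681 non-control probes, 3 for *Tdgf1* and 1 for each other gene.

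The cells were E14 mouse ES cells (129/Ola), grown on gelatin in serum with Lif, and the study activated the lncRNA *Hottip* or the neighbouring gene *Hoxa13* from their own promoters. *Hottip* gRNA cells (4 arrays) and *Hoxa13* gRNA cells (3 arrays) received pooled guide plasmids against the respective promoter together with dCas9-VP160, a nuclease-dead Cas9 carrying an activation domain. The control cells (3 arrays) received non-targeting guides, and the labels name dCas9 alone for them, so the guide target and the activation domain may both differ between control and activated cells. All were transiently transfected, kept in 2 μg/ml puromycin for a selection of 24 hrs, harvested 48 hrs after transfection, and the labels give each array as a biological replicate. ES cell markers were present, as 8 of 8 (including *Pou5f1*, *Sox2*, *Nanog* and the member *Tdgf1*) were well above background on all 10 arrays and 0 of 6 fibroblast markers were, although *Thy1* and *Col3a1* were so on 7 arrays each, *Col1a1* on 4, *Dcn* on 3 and *Col1a2* on 1. Markers of other lineages were also well above background on all 10 arrays. These were 3 of 8 for trophoblast, 3 of 9 for primitive and visceral endoderm and 2 of 6 for neural precursors.

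Levels below are log2 of the processed spot signal minus the 75th percentile of the same array, so that 0 is the level of the 75th percentile spot. "Well above background" is the scanner software's own call for a spot. Before scaling, that percentile lay between 1096 and 2380 intensity units on the control arrays, between 948 and 2572 on the *Hottip* gRNA arrays and between 586 and 1086 on the *Hoxa13* gRNA arrays. *Hoxa13* gRNA replicates 1 and 2 were on a slide of their own, and the other 8 arrays shared a second slide. On this scale the median difference of bright probes (mean level over 3) was 0.15 for *Hottip* gRNAs against the control, 0.63 for *Hoxa13* gRNAs against the same control and -0.52 for *Hottip* gRNAs against *Hoxa13* gRNAs, and quantile normalization brought these medians to 0.02, -0.0006 and 0.008. The differences of the detected members, by the probe that represents each gene, are therefore given on both scales. As this is RNA from whole cultures, fewer expressing cells and less RNA per cell cannot be told apart.

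The genes fell into 2 sets by detection. *Nodal*, *Lefty1*, *Lefty2*, *Tdgf1* and *Foxh1* were well above background on all 10 arrays through each of their 7 probes. *Gsc*, *Lhx1* and *Cer1* were so on 1 array each and *Mixl1* and *Mesp1* on none. Of all named genes, 40.9% were well above background on all 10 arrays and 27.8% on none, against 5 and 2 of the 10 members. Only the first set entered the test adjusted for multiple testing, which took probes well above background on at least 3 arrays.

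The RefSeq promoter table (GRCm38.p6) held 6 of the members, *Nodal*, *Tdgf1*, *Gsc*, *Mesp1*, *Lhx1* and *Cer1*. The 250 bases before their starts were searched on both strands for the FoxH1 motif AATNCACA, the Smad motif GTCTAGAC, its short form CAGAC, the T-box motif TCACACCT, the homeobox motif TAATTA, the octamer ATGCAAAT and the TATA box TATAAA. The FoxH1 letters were in none of the 6 windows and in 3.18% of 32851 promoter windows. TAATTA lay in the *Tdgf1* and *Cer1* windows (4.84% of all windows), TATAAA in that of *Gsc* (12.4%, at bases -164 to -159 from the start), and CAGAC in those of *Cer1*, *Mesp1*, *Tdgf1* and *Lhx1* (42.2%). GTCTAGAC (0.167% of all windows), TCACACCT (1.12%) and ATGCAAAT (1.60%) were in none of the 6, and the window of *Nodal* held none of the 7 motifs. The windows of *Tdgf1*, a detected gene, and of *Gsc* and *Cer1*, each well above background on 1 array, are shown because they hold the homeobox and TATA matches. They run 5′ to 3′ up to the base before the start, with each match in capitals.
*Tdgf1*, chr9:110946159-110946408, minus strand: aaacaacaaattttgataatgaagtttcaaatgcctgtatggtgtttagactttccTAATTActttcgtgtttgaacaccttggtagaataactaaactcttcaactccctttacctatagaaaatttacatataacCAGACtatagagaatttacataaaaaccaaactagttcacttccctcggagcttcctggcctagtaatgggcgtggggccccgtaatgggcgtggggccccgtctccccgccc
*Gsc*, chr12:104473237-104473486, minus strand: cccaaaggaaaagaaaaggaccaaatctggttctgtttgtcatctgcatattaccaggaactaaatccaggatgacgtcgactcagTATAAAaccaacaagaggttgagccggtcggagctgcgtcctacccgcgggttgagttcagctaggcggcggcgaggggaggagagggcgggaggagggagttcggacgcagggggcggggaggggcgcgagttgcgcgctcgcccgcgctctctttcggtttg
*Cer1*, chr4:82885152-82885401, minus strand: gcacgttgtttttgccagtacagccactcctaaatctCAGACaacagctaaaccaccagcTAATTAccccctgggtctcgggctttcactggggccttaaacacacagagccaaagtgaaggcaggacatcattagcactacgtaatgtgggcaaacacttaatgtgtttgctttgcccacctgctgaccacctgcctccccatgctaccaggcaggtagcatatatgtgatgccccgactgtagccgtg
The *Gsc* window held 22 CG dinucleotides, *Tdgf1* 7 and *Cer1* 5, against a median of 6 over all windows. These matches describe letters and were not tested against expression.

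*Nodal* encodes the ligand itself. Its level was 3.83, 3.78 and 4.63 in the control replicates and 4.47, 4.69, 4.55 and 3.73 in the *Hottip* gRNA replicates. In *Hoxa13* gRNA replicates 1 and 3 it was 5.63 and 4.61, and the spot of replicate 2 was marked as an outlier by the scanner software and left out (3.10 if kept). The *Hottip* gRNA and control arrays overlapped throughout, and of the *Hoxa13* gRNA arrays only replicate 1 lay above every other array. Against the control the log2 difference was 0.28 ± 0.42 (SE, adjusted p = 0.999, limma) for *Hottip* gRNAs and 1.04 ± 0.51 (adjusted p = 0.469) for *Hoxa13* gRNAs. After quantile normalization these were 0.13 and 0.25, and in the authors' log2 values the latter was -0.04. With the slide as a block the *Hoxa13* gRNA difference was 0.53, but this rests on replicate 3 alone, the only *Hoxa13* gRNA array on the shared slide, which is assumed to vary like the other groups. It was also 0.53 without replicate 1 and 1.55 without replicate 3.

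*Lefty1*, a secreted inhibitor of Nodal, had levels of 3.85, 3.86 and 4.90 in the control and 4.41, 4.70, 4.50 and 3.83 after *Hottip* gRNAs. After *Hoxa13* gRNAs the levels were 5.42, 4.97 and 4.93. All 3 *Hoxa13* gRNA arrays thus lay above all 7 others, the nearest being control replicate 3. The log2 difference from the control was 0.90 (95% interval -0.02 to 1.82, adjusted p = 0.460, limma) for *Hoxa13* gRNAs and 0.15 ± 0.39 (SE, adjusted p = 0.999) for *Hottip* gRNAs. By exact two-sided permutation *Hoxa13* gRNAs against the control gave p = 0.1, the smallest that 3 against 3 arrays allow. After quantile normalization the differences were 0.18 for *Hoxa13* gRNAs, whose arrays then overlapped the control, and 0.02 for *Hottip* gRNAs. With the slide as a block, and so with *Hoxa13* gRNA replicate 3 alone, the former was 0.73. The unscaled median spot signal was not higher throughout, at 23706 to 36535 in *Hoxa13* gRNA arrays and 31064 to 35640 in control arrays. *Hoxa13* gRNA replicates 1 and 2 (25350 and 23706) were below every control array, and replicate 3 (36535) was above them. The lower 75th percentile of the *Hoxa13* gRNA arrays moved with the scaled difference, with its part in it not tested.

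*Lefty2*, the second Lefty inhibitor and a target of the pathway, did not separate the groups. Its level was 3.37, 3.05 and 4.32 in the control, 4.34, 3.80 and 3.13 in *Hottip* gRNA replicates 2 to 4, and 3.01 and 4.35 in *Hoxa13* gRNA replicates 1 and 3. The spots of *Hottip* gRNA replicate 1 and *Hoxa13* gRNA replicate 2 were marked as outliers and left out (3.97 and 0.77 if kept). The log2 difference from the control was 0.18 ± 0.55 for *Hottip* gRNAs and 0.10 ± 0.62 for *Hoxa13* gRNAs (SE, adjusted p = 0.999 and 0.953, limma), and 0.11 and -0.27 after quantile normalization. Where *Lefty1* was above all control arrays in each *Hoxa13* gRNA array, *Lefty2* ran from below to above every control array there. The probe sequences are not in the files used here, so signal shared between the closely related *Lefty1* and *Lefty2* transcripts was not tested.

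*Foxh1*, the forkhead protein that brings activated Smads to DNA, had levels of 2.53, 1.86 and 2.37 in the control, 2.40, 2.49, 2.86 and 2.05 after *Hottip* gRNAs and 3.02, 2.81 and 2.36 after *Hoxa13* gRNAs. The 3 groups overlapped. The log2 difference from the control was 0.20 ± 0.35 for *Hottip* gRNAs and 0.48 ± 0.38 for *Hoxa13* gRNAs (SE, adjusted p = 0.999 and 0.601, limma), and they were 0.22 and 0.32 after quantile normalization.

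*Tdgf1* (Cripto), the co-receptor that Nodal needs and also a marker of undifferentiated ES cells, was measured by 3 probes. On A_55_P2183147, the probe with the highest mean signal, which represents the gene below, the level was 3.75, 4.10 and 6.08 in the control and 5.06, 5.40, 4.87 and 4.26 after *Hottip* gRNAs. In *Hoxa13* gRNA replicates 2 and 3 it was 5.84 and 5.55, with replicate 1 left out as an outlier spot (6.82 if kept). Control replicate 3 alone was above both *Hoxa13* gRNA arrays, while the other 2 control arrays were the lowest of all. The log2 difference of *Hoxa13* gRNAs from the control was 1.05 ± 0.67 (SE, adjusted p = 0.533, limma), and 1.76 without control replicate 3. After quantile normalization it was 0.43, and the difference after *Hottip* gRNAs was 0.25 on both scales. The unscaled median spot signal of this probe lay between 35137 and 49396 on all 10 arrays, and the authors' log2 values of it between 15.40 and 15.53 (outlier spots left out), in which the same difference was -0.04.

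The other *Tdgf1* probes were A_55_P1968028 and A_55_P2058540. On the former, *Hoxa13* gRNA replicate 1 stood at 5.78, replicate 2 at 4.06 and replicate 3 at 3.06, the control arrays lay between 2.76 and 3.79 and the *Hottip* gRNA arrays between 2.82 and 3.63. On the latter the *Hoxa13* gRNA arrays lay between 3.59 and 4.06, the control arrays between 3.16 and 3.68 and the *Hottip* gRNA arrays between 2.83 and 3.56. Against the control, *Hoxa13* gRNAs differed by 1.00 and 0.32 and *Hottip* gRNAs by -0.24 and -0.27 on the log2 scale, so the probes had the same sign after *Hoxa13* gRNAs and disagreed in sign after *Hottip* gRNAs, where the first probe gave 0.25. None of these was called (adjusted p of 0.517 or more, limma).

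**Figure D1:**
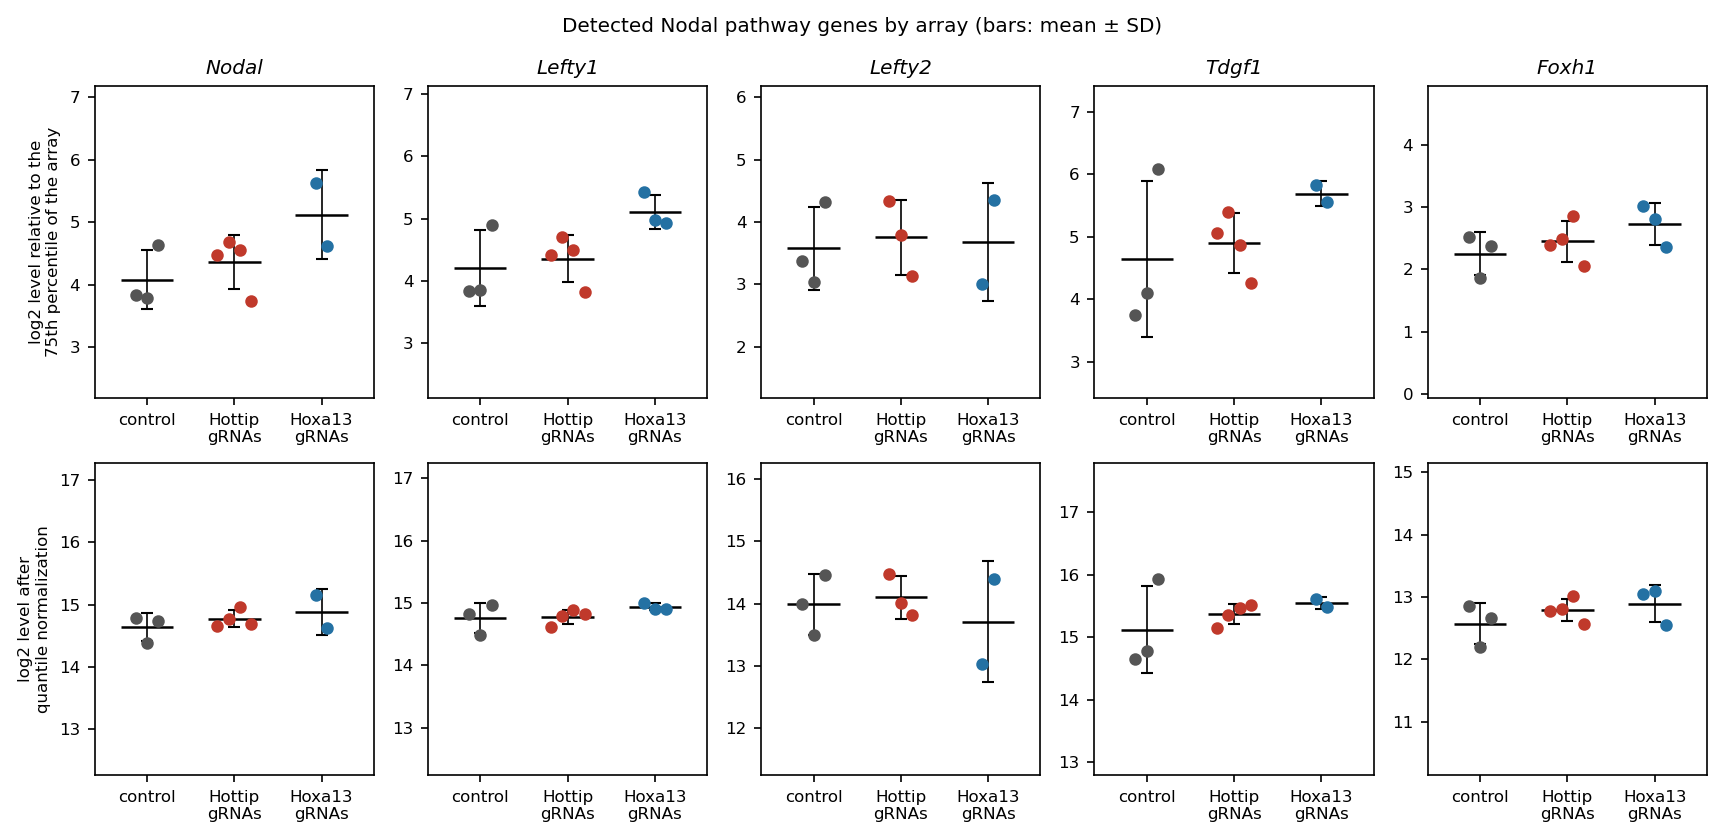
Levels of the 5 detected genes on each array (points, outlier spots left out), with mean and SD as black bars, for control, *Hottip* gRNA and *Hoxa13* gRNA cells. The upper row is the log2 level relative to the 75th percentile of the array, where the *Lefty1* arrays of *Hoxa13* gRNA cells (4.93 to 5.42) lie above the rest, and the lower row is the log2 level after quantile normalization, where they overlap the control; all panels of the figure span the same number of log2 units.

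**Figure D2:**
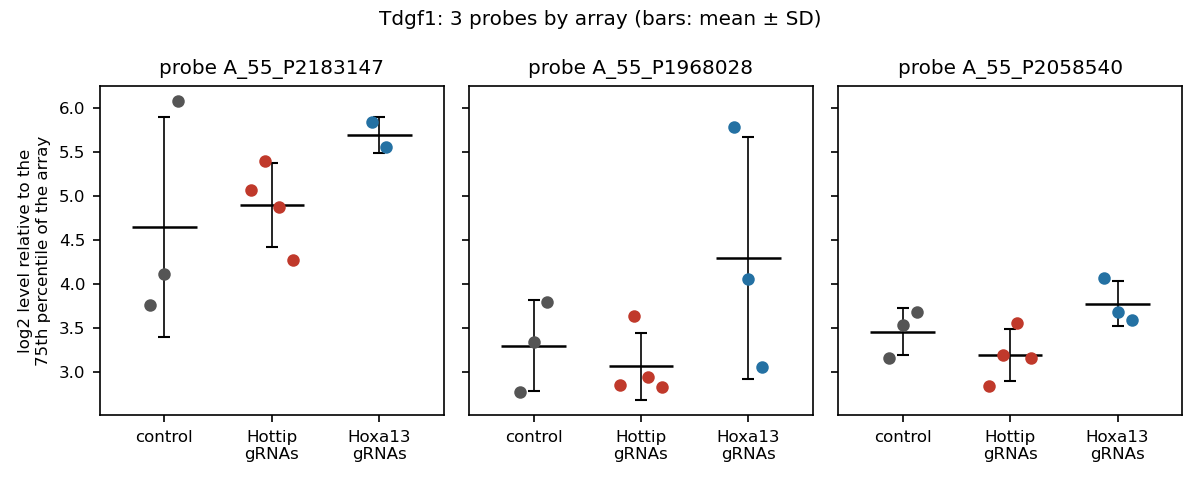
The 3 *Tdgf1* probes by array (points), as log2 level relative to the 75th percentile, with mean and SD as black bars and the outlier spot left out. The spread among *Hoxa13* gRNA arrays on A_55_P1968028 (3.06 to 5.78) is wider than on A_55_P2058540 (3.59 to 4.06).

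No member was called in any comparison. Of 5 tested genes, 0 had an adjusted p under 0.05 (limma) for *Hottip* gRNAs against the control, where 0.718% of 22832 probes did, 0 for *Hoxa13* gRNAs against the control (0.175% of 22830) and 0 for *Hottip* gRNAs against *Hoxa13* gRNAs (0.381% of 22825). At an unadjusted p under 0.05 the count of tested members was 0 in each comparison, against 8.05%, 11% and 11.9% of all tested probes. These shares include dimmer probes than the members. Among probes well above background on all 10 arrays, 5 of 14114, 0 of 14113 and 0 of 14114 were called (limma, adjusted within that set). In the same set 630, 1485 and 1214 probes had an unadjusted p under 0.05 (limma). The representative probe of a tested member did not overlap between groups for 0 of 5 genes for *Hottip* gRNAs against the control (10.4% of probes measured on every array), 1 of 5 for *Hoxa13* gRNAs against the control (18.3%, *Lefty1*) and 2 of 5 for *Hottip* gRNAs against *Hoxa13* gRNAs (14.6%, *Lefty1* and *Tdgf1*). The median difference of the 5 genes was 0.20, 0.90 and -0.75 in these comparisons, where that of all tested probes was -0.03, 0.19 and -0.26 and that of the bright probes 0.15, 0.63 and -0.52. The widths of the intervals show what could be seen: for *Nodal* the *Hottip* gRNA difference lay between -0.67 and 1.23, and for *Foxh1* between -0.58 and 0.98.

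Set directly against each other, *Hottip* gRNA arrays were lower than *Hoxa13* gRNA arrays by 0.76 ± 0.48 for *Nodal*, 0.75 ± 0.39 for *Lefty1*, 0.79 ± 0.64 for *Tdgf1* and 0.28 ± 0.35 for *Foxh1* (SE, log2 difference), and higher by 0.07 ± 0.62 for *Lefty2* (adjusted p from 0.450 to 0.964, limma). After quantile normalization the differences were -0.12, -0.16, -0.18, -0.10 and 0.39 in this order. In the authors' log2 values the sign of the first 4 was turned, at 0.35, 0.03, 0.01 and 0.02.

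**Figure D3:**
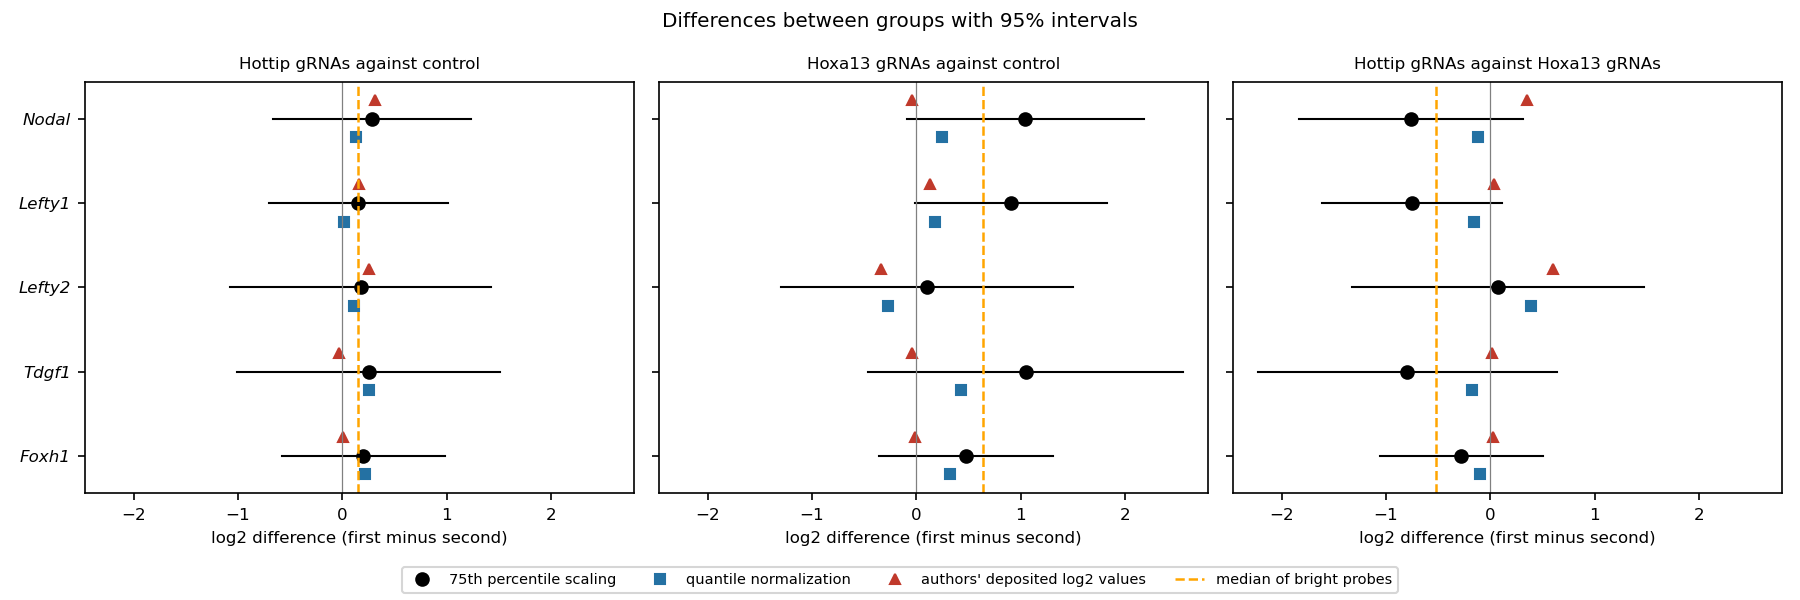
Log2 differences of the 5 detected genes in the 3 comparisons: black circles with 95% intervals on the 75th percentile scale, blue squares after quantile normalization and red triangles in the authors' log2 values. The dashed line is the median difference of bright probes on the 75th percentile scale, at 0.63 for *Hoxa13* gRNAs against the control, where the black circle of *Lefty1* stands at 0.90 and its square at 0.18.

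Over the arrays, the detected members went together to different degrees. Pearson's r, as a description over arrays that share their scaling, was 0.96 for *Nodal* and *Lefty1* (9 arrays), 0.96 for *Lefty1* and *Tdgf1* (9 arrays) and 0.22 for *Nodal* and *Lefty2* (8 arrays). After quantile normalization the same pairs stood at 0.75, 0.70 and -0.29. Other pairs went otherwise, with *Lefty2* and *Tdgf1* at 0.91 and then 0.61 (7 arrays). *Nodal* and *Foxh1* stood at 0.77 and then 0.93 (9 arrays). Over all pairs of the detected members r ran from 0.09 (*Lefty2* and *Foxh1*, 8 arrays) to 0.96 before that step, and from -0.29 to 0.93 after it. The genes with the most similar levels among 5106 or 5107 compared were *Ergic3*, *Vps41* and *Dnpep* for *Nodal* (r of 0.99 each, 9 arrays), *Stmn1*, *Pias2* and *Mrps31* for *Lefty1* (0.98 to 0.99, 10 arrays), *Enkd1*, *Ube2m* and *Exosc4* for *Lefty2* (0.98 each, 8 arrays), *Rpl27a*, *Eif1* and *Ndufb9* for *Tdgf1* (0.99 or more, 9 arrays) and *Gon4l*, *Napb* and *Jmjd8* for *Foxh1* (0.96 to 0.98, 10 arrays). None of these is a member of the Nodal lists.

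The mesendoderm genes were near background, and *Gsc* was the only one of them for which a pair of groups, *Hottip* and *Hoxa13* gRNAs, did not overlap. *Gsc* (Goosecoid) is a homeobox gene of the organiser and anterior primitive streak and a classical target of Nodal and activin. Its level was -5.28, -2.95 and -4.44 in the control, -3.06, -2.03, -2.80 and -1.28 after *Hottip* gRNAs and -4.48, -4.28 and -4.53 after *Hoxa13* gRNAs. Every *Hottip* gRNA array was above every *Hoxa13* gRNA array, and 3 of 4 were above every control array, replicate 1 being just under control replicate 2. After quantile normalization the *Hottip* gRNA arrays (6.66 to 8.87) still lay above the *Hoxa13* gRNA arrays (5.69 to 5.96). In the authors' log2 values they did not, as *Hottip* gRNA replicate 1 (6.07) was below every *Hoxa13* gRNA array (6.08 to 7.35). Only *Hottip* gRNA replicate 4 was well above background. The mean was -2.29 ± 0.81 (SD, n = 4) after *Hottip* gRNAs, -4.22 ± 1.18 (n = 3) in the control and -4.43 ± 0.13 (n = 3) after *Hoxa13* gRNAs. With 1 of 10 arrays well above background, no fold was read from these means. *Gsc* was outside the adjusted test, and with no filter on dim probes its adjusted p was 0.558 against the control and 0.363 against *Hoxa13* gRNAs (limma). Exact two-sided permutation gave p = 0.0571 and p = 0.0286, the latter the smallest that 4 against 3 arrays allow, among 36 such tests of member probes, not adjusted.

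The *Gsc* spot was also set against the median of the 11 by 11 spots around it. In *Hottip* gRNA replicates 2, 3 and 4 it was brighter than these surroundings. On replicates 3 and 4, the arrays without multiplicative detrending, the surroundings lay at a floor value shared with the *Mixl1* and *Cer1* spots (-4.54 and -5.01), and the *Gsc* spot itself was well above background only on replicate 4, so the size of the gap was not read. In *Hottip* gRNA replicate 1 it was 0.59 below them (a difference of -0.59), and in the control and *Hoxa13* gRNA arrays it differed from them by -0.93 to -0.02. Only 3 arrays, all with *Hottip* guides, thus had the spot brighter than its neighbours. With the surroundings subtracted, exact two-sided permutation gave p = 0.0857 for *Hottip* gRNAs against the control and p = 0.114 against *Hoxa13* gRNAs, and *Hottip* gRNA replicate 1 overlapped the *Hoxa13* gRNA arrays (-0.59 against -0.82 to -0.02). Both p-values use the size of the gaps to the floor value on replicates 3 and 4, so nothing is concluded from them.

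*Cer1*, a secreted antagonist of Nodal and BMP signals in anterior visceral endoderm, was well above background only on control replicate 3, at 0.99, where the other 9 arrays lay between -5.67 and -4.14. The surroundings of that spot had a median of 0.90, so the spot was no brighter than its neighbours by more than 0.09, and on the other 9 arrays the spot and its surroundings were also within 0.05 log2 units of each other. The median spot signal there was 3720 intensity units, against 51 to 125.5 on the other arrays. No group difference can be read from this gene.

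*Mixl1*, a paired-type homeobox gene of the primitive streak, lay between -5.95 and -3.90 on the 10 arrays, and *Mesp1*, a bHLH gene of early cardiac mesoderm, between -5.63 and -2.64, both below the call on every array. *Lhx1*, a LIM homeobox gene of the organiser, was well above background only on *Hoxa13* gRNA replicate 2, on a spot marked as an outlier (-0.14 if kept), and lay between -5.39 and -3.69 on the others. The groups of each of these 3 genes overlapped in all comparisons. At this signal over background a group difference in them was not detectable.

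**Figure D4:**
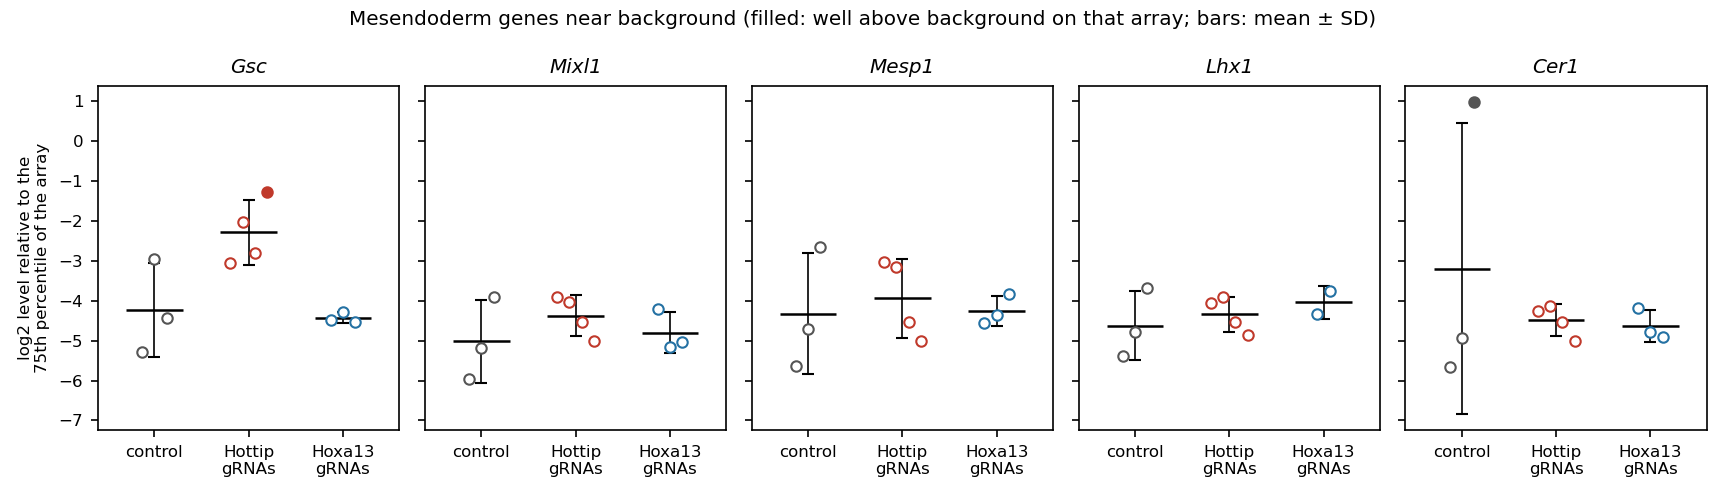
Levels of *Gsc*, *Mixl1*, *Mesp1*, *Lhx1* and *Cer1* on each array as log2 relative to the 75th percentile, with mean and SD as black bars; filled points are well above background and the outlier spot of *Lhx1* is left out. Filled points are *Gsc* on *Hottip* gRNA replicate 4 (-1.28) and *Cer1* on control replicate 3 (0.99).

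**Figure D5:**
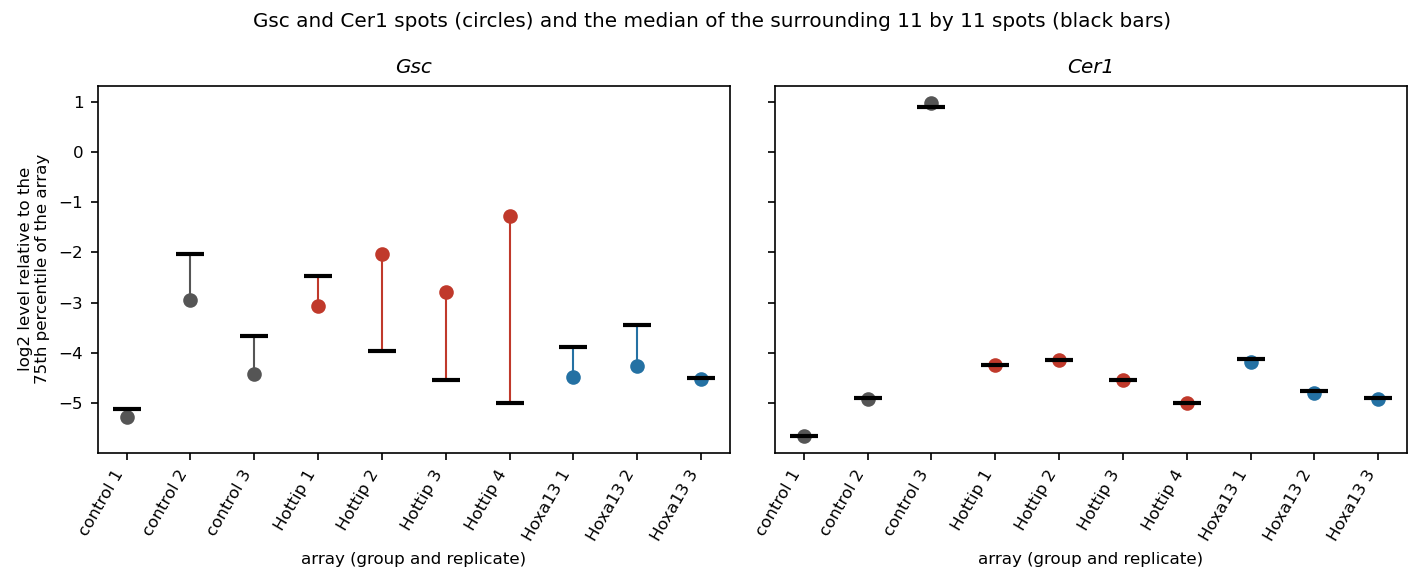
The *Gsc* and *Cer1* spots (circles, coloured by group) and the median of the surrounding 11 by 11 spots (black bars) on each array, as log2 level relative to the 75th percentile. The *Gsc* circle is above its bar on *Hottip* gRNA replicates 2 to 4, where the bars of replicates 3 and 4 (-4.54 and -5.01) are a floor value, and the *Cer1* circle of control replicate 3 lies on its bar.

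The wider pathway was read through lists of genes of known role. For *Hottip* gRNAs against the control, 0 of 6 tested ligand and processing genes, 0 of 5 receptor and co-receptor genes, 0 of 7 signal transducers, 0 of 10 inhibitor and feedback genes and 0 of 7 BMP and Wnt genes were called. In both other comparisons these lists had 0 called genes as well. Of all tested probes, 0.718% were called for *Hottip* gRNAs and 0.175% for *Hoxa13* gRNAs against the control, and 0.381% between the guide pools. Among genes well above background on every array, the largest and smallest differences after *Hottip* gRNAs were those of *Nodal* (0.28) and *Furin*, a convertase that matures the ligand (-0.76), in the ligand list. They were *Acvr1b*, the type I receptor (0.49), and *Acvr2a* (-0.16) among receptors, *Eomes*, a T-box partner of Smads (0.88), and *Smad4* (-0.54) among transducers, *Nomo1* (1.17) and *Skil* (-0.39) among inhibitors, and *Sp5*, a Wnt target (1.46), and *Id2* (-1.05) among BMP and Wnt genes. After *Hoxa13* gRNAs the same extremes were *Nodal* (1.04) and *Inhbb* (-0.72), *Tdgf1* (1.05) and *Acvr1b* (-0.25), *Drap1*, a corepressor of Foxh1 (1.12), and *Smad4* (-0.55), *Lefty1* (0.90) and *Skil* (-0.27), and *Id1* (0.55) and *Id2* (-1.29). The median differences of these 5 lists lay between -0.23 and 0.27 after *Hottip* gRNAs and between 0.004 and 0.49 after *Hoxa13* gRNAs, beside -0.03 and 0.19 over all tested probes.

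Of 22 mesendoderm genes, 5 were well above background on all 10 arrays and 6 on none, where 40.9% and 27.8% of all named genes were. For *Hottip* gRNAs against the control 1 of 11 tested was called, beside 0.718% of all tested probes. In the other comparisons 0 of 11 were called. *Fgf8*, a growth factor of the primitive streak, was the called gene, with a lower level after *Hottip* gRNAs. It passed the filter only through control and *Hoxa13* gRNA arrays, the groups where it was higher. Its probe A_55_P2101508 was at -0.95 ± 0.15 (SD, n = 3) in the control and -3.35 ± 0.62 (n = 4) after *Hottip* gRNAs, where 0 of 4 arrays were well above background, at least 2.96-fold lower (adjusted p = 0.0355, limma). After *Hoxa13* gRNAs it was at -2.38 ± 0.68 (n = 3), with 2 of 3 arrays well above background and no call (adjusted p = 0.435). A further probe, A_55_P2108109, named after its values were seen, was at -0.43 ± 0.22 in the control and -4.34 ± 0.14 after *Hottip* gRNAs, at least 4.22-fold lower (adjusted p = 0.00807, limma), and the third *Fgf8* probe was well above background on no array. The call of the first probe was lost under 15 of 23 alternatives, with adjusted p from 0.0030 to 0.252 over all 23, and its direction held in each. Leaving out any 1 control array, *Hottip* gRNA replicate 2, 3 or 4, or *Hoxa13* gRNA replicate 3 was enough to lose it (adjusted p from 0.0613 to 0.154, limma). In this list the other extremes were *Snai1* (1.21) and *Hhex* (-1.24) after *Hottip* gRNAs and *Kdr* (0.77) and *Hhex* (-0.85) after *Hoxa13* gRNAs, none called.

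Markers of other cell types were read on the same arrays. Unlike the other levels, the summed levels below keep outlier spots, so they include the *Tdgf1* spot left out above. Trophoblast markers (8 genes, *Elf5* and *Hand1* on no array) had a summed linear level of 21.4 to 56.6 on *Hottip* gRNA arrays, 8.29 to 10.98 on control arrays and 13.6 to 30.1 on *Hoxa13* gRNA arrays. In this list *Cdx2* (well above background on 0 of 3 control and 4 of 4 *Hottip* gRNA arrays, at least 13.3-fold higher, adjusted p = 0.00105) and *Gata3* (2 of 3 and 4 of 4 arrays, log2 difference 2.72, adjusted p = 0.00649) rose after *Hottip* gRNAs (limma), and *Eomes*, which the list shares with the Nodal lists, was at 0.26 ± 0.38 (SD, n = 4) against -0.62 ± 0.11 (n = 3) with no call. Their part in the levels of *Gsc* and *Fgf8* was not tested. *Cdx2* passed the filter only through arrays of activated cells, so its p-value is not separate support for the rise. ES cell markers, a list that holds *Tdgf1*, had a summed level of 117 to 380 in the control, 139 to 301 after *Hottip* gRNAs and 305 to 499 after *Hoxa13* gRNAs, with a median difference of 0.97 between *Hoxa13* gRNAs and control, and 0 of 8 called. In that comparison and on the same scale, the median difference was 0.19 over all tested probes and 0.63 over bright probes. Primitive endoderm, neural and fibroblast lists had no called gene (0 of 7, 0 of 3 and 0 of 4 tested) in any comparison. The share called over all tested probes was also small, at 0.718%, 0.175% and 0.381% in the 3 comparisons. Primitive and visceral endoderm markers had a summed level of 4.65 to 84.9 on control arrays, with a median of 6.25. The sum was 6.69 to 12.4 on *Hottip* gRNA arrays and 6.02 to 6.85 on *Hoxa13* gRNA arrays. *Gapdh* and *Actb*, as reference genes, differed by 0.34 and -0.24 after *Hottip* gRNAs and by 1.45 and 0.41 after *Hoxa13* gRNAs, and the shift of *Gapdh* lay beyond that of each detected member (0.10 to 1.05) in the latter comparison.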

How the data were processed

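RNA of 10 cultures was hybridised to 1-colour Agilent mouse arrays. Per the file headers, Feature Extraction 11.5.1.1 made the deposited spot intensities by subtracting background and, except on *Hottip* gRNA replicates 3 and 4, multiplicative detrending. The authors' log2 values, a separate deposited table, follow the background-subtracted median signal and are quantile normalized. They were used as an alternative.

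Processed intensities were log2 transformed and set relative to the 75th percentile of each array, outlier-flagged spots were left out, and spots of a probe were averaged. Summed levels of marker lists kept the flagged spots. A linear model over all 10 arrays and all probes was fitted with limma 3.58.1 (R 4.3.3). P-values were adjusted by Benjamini-Hochberg over 22839 probes that passed the background call on 3 or more arrays (fewer where spots were missing), and called at 0.05. Two-sided exact permutation tests were run per member probe. A gene was represented by its probe with the highest mean. From each gene list, up to 6 called genes were named or, where none was called, the genes with the largest and smallest difference among those well above background on every array. Markers, reference genes and the 3 most similar genes were also named. A fold against a group below background is a bound, set from the lowest signal well above background on each dim array. Of 120 member spots, 5 were outliers. The number of arrays limits the precision, and p-values set a group difference against the spread between these samples. The members and lists were chosen with earlier results of these data known. Alternatives covered scaling, background correction, filters, slide, the replicate number, the model, the choice of probe and leaving out each array. Methods were tested on simulated data.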

Additional observations from a re-analysis of the deposited data

Results flagged for a closer look

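The *Tdgf1* probe A_55_P1968028 had 1 *Hottip* gRNA array apart from the others. Replicate 2 was at 3.63 and the other 3 arrays lay between 2.82 and 2.93, so that the gap was 0.864 of the range, above the critical value of 0.829. Of 11 probes checked in this way 1 was found, where chance marks about 1 in 20 groups.

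The mean log2 signals of *Gsc* after *Hottip* and *Hoxa13* gRNAs lay 2.14 apart, with the spot well above background on 1 of 4 and 0 of 3 arrays, so that this is no measured fold. Every *Hottip* gRNA array lay above and every *Hoxa13* gRNA array below the control mean of -4.22. In the authors' log2 values, however, *Hottip* gRNA replicate 1 (6.07) lay below every *Hoxa13* gRNA array (6.08 to 7.35). With no filter on dim probes the adjusted p of this difference was 0.363 (limma), and the exact two-sided permutation p, 0.0286 before the surroundings of the spot were subtracted, was 0.114 after. The latter p uses gaps to a floor value on *Hottip* gRNA replicates 3 and 4, so it cannot serve as a check on the former.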

How the results depend on the processing

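No member was called under any alternative. On the 75th percentile scale *Nodal*, *Lefty1*, *Tdgf1* and *Foxh1* were higher after *Hoxa13* gRNAs than in the control, but in the authors' log2 values the differences were -0.039 for *Nodal*, -0.34 for *Lefty2*, -0.041 for *Tdgf1* and -0.017 for *Foxh1*, and with normexp and quantile normalization -0.033, -0.35, -0.055 and -0.012. *Lefty2* was also turned by quantile normalization (-0.27), normexp (-0.20) and outlier spots kept, an alternative chosen after seeing the data (-0.87). *Gata3*, at -0.002 after *Hoxa13* gRNAs, was at 0.28, 0.076 and 0.044 with quantile normalization, median centring and normexp. After *Hottip* gRNAs *Tdgf1* was at -0.029 in the authors' values, -0.035 with normexp and quantile normalization and -0.084 as the mean of its probes, and *Foxh1* at -0.12 with normexp. For *Hottip* gRNAs against *Hoxa13* gRNAs, the authors' values gave 0.35 for *Nodal*, 0.033 for *Lefty1*, 0.0125 for *Tdgf1* and 0.021 for *Foxh1*, normexp with quantile normalization 0.34, 0.028, 0.020 and 0.018, and the slide as a block, like the shared slide alone, -0.60 for *Lefty2* and 0.094 for *Foxh1*. The cause was not tested.

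Leaving out each array gave ranges, against the control after *Hottip* gRNAs, of -0.024 to 0.50 for *Lefty1*, -0.12 to 0.55 for *Lefty2* and -0.19 to 0.97 for *Tdgf1*, after *Hoxa13* gRNAs of -0.57 to 0.77 for *Lefty2* and -0.22 to 0.26 for *Gata3*, and between both guide pools of -0.60 to 0.75 for *Lefty2*. *Nodal* ranged from 0.13 (without control replicate 2) to 0.56 (without control replicate 3) after *Hottip* gRNAs and from 0.53 (without *Hoxa13* gRNA replicate 1) to 1.55 (without replicate 3) after *Hoxa13* gRNAs. No size is given for *Gsc*, which was well above background on 1 array.

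Of all probes, 164 were called for *Hottip* gRNAs against the control, 109 in the authors' values, 107 with outlier spots kept, 5 among probes well above background on all 10 arrays, and 41 to 225 without 1 array. For *Hoxa13* gRNAs against the control 40 were called, 88 with median centring, 17 with outlier spots kept, 16 with no filter, 0 among probes well above background on all 10 arrays (limma; 11% of tested probes had an unadjusted p under 0.05 in the report's setting), 64 with the slide as a block (*Hoxa13* gRNA replicate 3 alone against the control), 22 with only both groups, 25 with an intensity trend, and 0 to 110 without 1 array. Between the guide pools 87 were called, 166 with normexp and quantile normalization, 31 with no filter, 0 among probes well above background on all 10 arrays, 48 on the shared slide, and 11 to 114 without 1 array.

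The replicate numbers share only a number: over 9 pairs the correlation of deviations ran from -0.23 to 0.14, with 1 over 0.1. With the replicate number as a block, 14, 2 and 8 probes were called in these comparisons, and 0 members; *Fgf8*, *Cdx2* and *Gata3* then had adjusted p of 0.252, 0.0532 and 0.123 for *Hottip* gRNAs against the control (limma). Signal over background limited *Gsc*, *Mixl1*, *Mesp1*, *Lhx1* and *Cer1*.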
